A study of Mus musculus with 20 samples.

Results

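The CD8 T cells described here are tumour-infiltrating cells from mice given an antibody against PD-L1, and the comparison is Tet2 knockout against wild-type. They were chosen from the UMI counts of single barcodes. A kept barcode had at least 500 detected genes and at most 10% mitochondrial UMIs. A CD8 cell had at least 3 UMIs of Cd3d, Cd3e and Cd3g summed, at least 1 of Cd8a and Cd8b1, under 5 of the macrophage genes C1qa, C1qb, C1qc and Lyz2, and under 10 of the melanocyte genes Mlana, Pmel, Dct and Tyrp1. This gave 2314 CD8 cells, 1297 wild-type and 1017 knockout, of 2880 kept cells with anti-PD-L1 and 7398 kept cells in the 4 single-cell libraries of the series. A low-mitotic CD8 cell had under 4 UMIs of Mki67, Top2a, Birc5, Ube2c, Cenpf and Ccna2 summed, which left 1637 cells, 967 wild-type and 670 knockout. The gates are sharp counts on a continuous scale. Exactly 3 CD3 UMIs were held by 4 CD8 cells of each genotype, while 3 wild-type and 1 knockout barcodes missed the gate with 2. Exactly 3 mitotic UMIs were held by 25 wild-type and 22 knockout cells just inside the low-mitotic gate, and exactly 4 by 18 and 21 just outside it. The genes of these gates chose the cells and are not results.

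The study asks how loss of Tet2 acts on CD8 T cells in a tumour. Tet2-/- mice were crossed with OT-I mice, whose transgenic T cell receptor binds a peptide of ovalbumin, and wild-type OT-I cells served as the control. The cells were given to hosts with B16-OVA tumours, a mouse melanoma engineered to express ovalbumin, and tumour-infiltrating CD8 cells were collected 8 days later. Each of the 4 combinations of genotype (wild-type or Tet2 knockout) and treatment (anti-PD-L1 or untreated) was 1 library of 10x Chromium 3′ single-cell RNA sequencing. All 4 groups therefore share the transgenic receptor, the transfer and the tumour. How many mice were pooled in a library, and whether host CD8 cells were removed, is not given in the sources used here. With 1 library in a group nothing was tested, and every value compares libraries. Intervals are 95% intervals that cover counting error only, and they are too narrow for genes whose UMIs come from few cells, because UMIs of a single cell are not independent.

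The listings held 11986451 UMIs in wild-type and 11835704 in knockout, and the CD8 cells 8139762 and 7999840. The median CD8 cell had 5480 UMIs and 1707 genes in wild-type and 6854 UMIs and 2045 genes in knockout, so shares of cells with a UMI are given after every cell was thinned to 2500 UMIs. The libraries also differed in sex-linked RNA. Of the wild-type CD8 cells, 14.5% (12.6% to 16.5%) held a UMI of a Y-linked gene, against 0 of 1017 knockout cells, which allows up to 0.295%, while Xist was held by 71.7% (69.2% to 74.1%) and 95.4% (93.9% to 96.6%). Markers of other cell types that the gates did not use varied. In the CD8 cells Ms4a1 of B cells and Ncr1 of NK cells were at 0, but the B cell list summed to 177 and 160 CPM, mostly Ighm (168 and 154 CPM), and the NK list to 18.4 and 10.9 CPM. The macrophage list summed to 319 and 256 CPM, of which Fcer1g alone made up 89.4 and 26.8 CPM, nearly the whole gap. Red cell genes were higher in wild-type, with a sum of 667 CPM against 279, and so were 10 dendritic cell genes, with 139 against 50.6. The part of sex or of these other RNAs in the differences below was not tested. Values in cells without macrophage or melanoma UMIs of the gates, or with Xist and no Y-linked UMI, are given beside some genes only.

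Tet2 encodes a dioxygenase that oxidises methylated cytosine in DNA, an early step in the removal of methylation at regulatory sites. PD-1 restrains T cell receptor signalling when it binds PD-L1, and an antibody to PD-L1 releases that brake. CD8 T cells in tumours range from memory-like cells, marked by the transcription factor Tcf7 and by receptors for lymphoid tissue, to effector cells that release granzymes, perforin and interferon gamma, and to exhausted cells with high inhibitory receptors.

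Levels are CPM, the UMIs of a gene in 1000000 UMIs of the cells named, and a difference is the log2 of knockout CPM over wild-type CPM. A gene was called higher or lower at a 1.5-fold difference and a mean of at least 20 CPM over both libraries, and the same floor sets which list members are counted. Across all CD8 cells 43 of 4576 genes were higher in knockout (0.940%) and 73 were lower (1.60%). In low-mitotic cells 74 of 4508 were higher (1.64%) and 76 lower (1.69%), or 3.33% in either direction. Among the 330 and 347 mitotic cells 53 of 4621 were higher (1.15%) and 82 lower (1.77%), 2.92% in either direction. The median difference of all genes was 0.09 in both sets. With TMM factors in place of UMI totals the split was 22 higher and 90 lower in all CD8 cells, and 42 and 117 in low-mitotic ones. In both cell sets 20 genes were higher, which is 46.5% of the first list and 27.0% of the second, and 58 were lower, 79.5% and 76.3%. The sets overlap, since the low-mitotic cells are part of the CD8 cells.

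**Figure D1:**
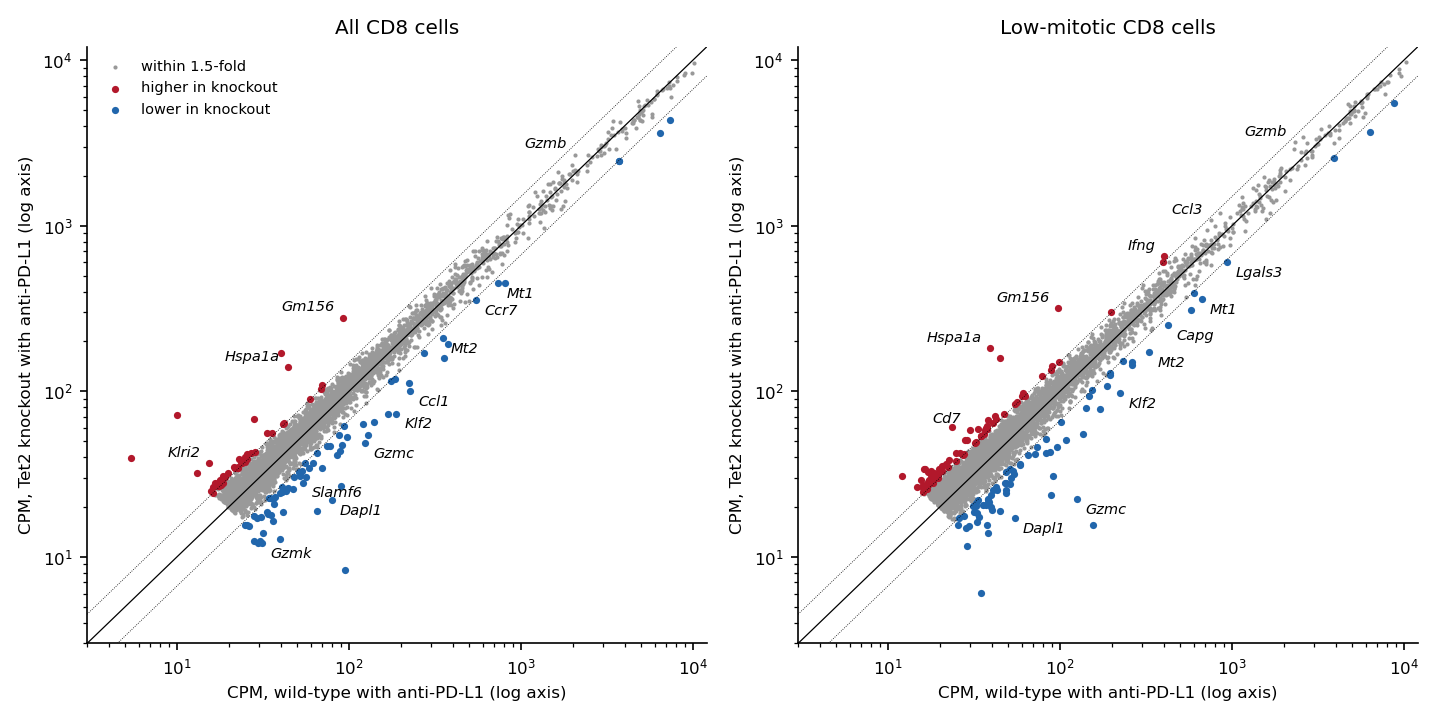
CPM of each gene past the floor in wild-type (x axis) and knockout (y axis) with anti-PD-L1, on log axes, in all CD8 cells (left) and low-mitotic CD8 cells (right). Each point is a gene, the solid line marks equal CPM and the dotted lines 1.5-fold. Gm156 and Hspa1a stand above the upper line, while Klf2, Dapl1, Mt1, Mt2 and Gzmc stand below the lower one.

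Among killer cell lectin-like receptors, surface receptors shared by NK cells and activated CD8 cells, Gm156 and its neighbour Klri2 were higher in the knockout. Gm156 is the older symbol of Klrh1 and lies on chr6:129766568-129784270 (GRCm38.p6). It was at 92.3 CPM (wild-type) and 279 CPM (knockout), a log2 difference of 1.60 (1.48 to 1.72), from 156 and 299 cells. The gap had nearly the same size on each side of the mitotic gate, 1.70 in low-mitotic cells and 1.52 in mitotic ones. More knockout cells held the transcript, 24.4% (21.7% to 27.1%) against 9.13% (7.59% to 10.9%) after thinning and 29.4% against 12% before it. The holding cells carried a mean of 3.23 UMIs in knockout and 2.85 in wild-type, with medians of 3 and 2. Macrophage-like barcodes, which should lack it, held it after the same thinning in 0 of 114 wild-type cases (up to 3.18%) and 0.758% of knockout ones. Before thinning their median depths were 5370 and 8838 UMIs. These barcodes were chosen to hold no UMI of the CD3 and CD8 genes, which selects against T cell RNA. Their low shares of T cell transcripts, here and below, are therefore partly set by that choice. Carry-over of RNA between cells was not tested.

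Klri2, which pairs with Klre1 in a receptor of the same gene complex (chr6:129729041-129740484), was at 15.4 and 36.9 CPM, a difference of 1.26 (0.96 to 1.58). It was held by 3.15% (2.25% to 4.28%) of wild-type and 7.58% (6.02% to 9.40%) of knockout cells, with 0.877% and 1.52% in macrophage-like barcodes. Cells with Gm156 also held Klri2 in 6.19% (2.53% to 12.3%) of wild-type and 9.84% (6.40% to 14.3%) of knockout cases, against 2.85% (1.96% to 4.0%) and 6.86% (5.17% to 8.90%) of cells without it, so the intervals overlap within each library. Klrc1, which encodes the inhibitory receptor NKG2A, was at 277 and 374 CPM, a difference of 0.44 (0.36 to 0.52) that misses the 1.5-fold mark, and its thinned share was 48.3% (45.4% to 51.1%) and 58.9% (55.8% to 61.9%). Its partner Klrd1 differed by 0.03 and the activating receptor Klrk1 by -0.13. Of 28 list members 9 were past the floor, of which 2 were higher (0.940% of all genes were) and 1, Klra3, was lower at -0.71 (1.60% were). Klra3 differed by -0.36 in cells with Xist and no Y-linked UMI, under the 1.5-fold mark. The list's median was 0.03, below that of all genes.

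Cd7, a surface protein of T and NK cells, and Tcrg-C2, a constant region of the gamma T cell receptor chain, were also higher. Cd7 was at 23 and 39.0 CPM, a difference of 0.76 in all CD8 cells and 0.98 in low-mitotic ones. Tcrg-C2, whose reads can be shared with similar constant regions, was at 13.1 and 32.3 CPM, a difference of 1.29. Its thinned share was 2.26% (1.51% to 3.25%) in wild-type and 5.99% (4.60% to 7.64%) in knockout. Trdc, a constant region of the delta chain, was at 220 and 222 CPM. The share of gamma delta T cells was not tested.

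Hspa1a, the inducible HSP70 chaperone, was higher in the knockout, most of all in low-mitotic cells. It lies at chr17:34969359-34972156 on the minus strand, and its reads may be shared with the near-identical Hspa1b. Its promoter is printed because heat shock factors act there. The window runs from 250 bases before to 50 after the RefSeq start (GRCm38.p6, chr17:34972107-34972406, minus strand), with capitals on the heat shock element GAANNTTC, which was searched on both strands and is its own reverse complement.

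Hspa1a: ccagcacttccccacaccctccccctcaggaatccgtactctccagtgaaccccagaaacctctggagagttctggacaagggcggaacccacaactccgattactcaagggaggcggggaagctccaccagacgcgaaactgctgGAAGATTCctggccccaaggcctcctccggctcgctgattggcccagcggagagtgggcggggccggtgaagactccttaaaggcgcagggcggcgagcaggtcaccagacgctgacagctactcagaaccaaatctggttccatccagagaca

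The element has 1 match in this window, and 7.86% of 32851 promoter windows of this length hold one. Hspa1a was at 44.1 CPM (wild-type) and 140 CPM (knockout), a difference of 1.66 (1.49 to 1.84), which was 2.20 (1.97 to 2.44) in low-mitotic cells and 0.95 (0.69 to 1.22) in mitotic ones. These UMIs came from few cells, 82 in wild-type and 129 in knockout. After thinning 4.12% (3.08% to 5.39%) of wild-type and 8.48% (6.83% to 10.4%) of knockout cells held the transcript, and 0.566% (0.228% to 1.16%) and 2.40% (1.54% to 3.54%) held 5 or more UMIs. Holding cells carried a mean of 2.73 UMIs in wild-type and 4.46 in knockout, with a median of 2 in both. Both the share of holding cells and their mean level were thus higher in knockout, while their median level was the same. Of thinned cells, 0 in wild-type and 11 in knockout held 10 or more UMIs. Macrophage-like barcodes held it more often, in 40.4% and 35.6%, and are no background for it. In CD8 cells with 0 macrophage and 0 melanoma UMIs the difference was 1.90. The other chaperones differed less, with 0.43 for the mitochondrial Hspd1, 0.30 for Hsp90aa1 and 0.06 for both the HSP40 gene Dnajb1 and the constitutive Hspa8.

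Effector genes gave a mixed picture. Gzmb, the main granzyme of activated CD8 cells, was at 2055 CPM (wild-type) and 2686 CPM (knockout), a difference of 0.39 (0.36 to 0.42) that does not reach 1.5-fold. It was held by 65.2% (62.5% to 67.9%) and 74.8% (71.9% to 77.4%) of thinned cells, and 18.4% (16.3% to 20.7%) and 25% (22.4% to 27.9%) held 10 or more UMIs. Gzma, a granzyme of another specificity, changed sign across the mitotic gate. It was at 978 and 1120 CPM in low-mitotic cells, a difference of 0.20, and at 479 and 264 CPM in mitotic cells, a difference of -0.86 (-0.97 to -0.75).

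Gzmk and Gzmc were lower in the knockout. Gzmk, a granzyme of memory-like and early effector cells, was at 31.2 and 12.1 CPM, a difference of -1.36 (-1.72 to -1.02), and was held by 6.71% (5.38% to 8.25%) and 2.99% (2.03% to 4.25%) of thinned cells. Gzmc, one of a cluster of granzymes induced by strong stimulation, was at 124 and 48.5 CPM, with a difference of -1.36 in all CD8 cells, -2.49 in low-mitotic cells and -0.73 in mitotic ones. A single knockout cell held 121 of its UMIs and a single wild-type cell 84. Of 10 granzymes 4 were past the floor and 2 of these were lower (1.60% of all genes were), with a list median of -0.77. Prf1, the pore-forming perforin, was at 16.3 and 23.9 CPM in all CD8 cells, a difference of 0.55, and at 17.3 and 28.5 in low-mitotic cells, where 0.72 (0.30 to 1.14) passed the mark. The serpin Serpinb9b, a protease inhibitor, was higher by 0.66 (0.940% of all genes were called higher). It was the only one of 15 lytic granule, death ligand and serpin genes past the floor to be called in all CD8 cells. Serpinb9b stayed past 1.5-fold in 7 of 12 other ways of processing. Fasl, the death ligand, differed by -0.32 and the granule protein Nkg7 by -0.16.

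Ifng, the main antiviral and antitumour cytokine of these cells, was at 299 and 423 CPM in all CD8 cells, a difference of 0.50 (0.43 to 0.58). In low-mitotic cells it was at 403 and 657 CPM, a difference of 0.71 (0.62 to 0.79), and its thinned share there was 23% (20.3% to 25.9%) and 31.4% (27.9% to 35.1%). Macrophage-like barcodes held it in 0.877% and 1.52%. A single knockout cell held 466 Ifng UMIs and a single wild-type cell 235, and without them the difference over all CD8 cells was 0.43. Over the other ways of processing the low-mitotic value ranged from 0.51 to 0.89. The macrophage-attracting chemokine Ccl3 differed by 0.27 in all CD8 cells and 0.51 in low-mitotic ones, where it was at 758 and 1077 CPM. Spp1, the secreted protein osteopontin, was at 399 and 601 CPM in low-mitotic cells, a difference of 0.59. It lies at the edge of the mark and stayed past 1.5-fold in 6 of 14 other ways of processing. Ccl1, a chemokine made by activated T cells, went the other way, at 228 and 100 CPM in all CD8 cells, a difference of -1.18 (-1.30 to -1.06) carried by 132 and 62 cells. Tnf differed by 0.03. Of 20 cytokines and chemokines 12 were past the floor in all CD8 cells, with 0 higher and 1 lower (0.940% and 1.60% of all genes). In low-mitotic cells 13 were, with 3 higher (Ifng, Ccl9 and Spp1) and 1 lower (1.64% and 1.69% of all genes).

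**Figure D2:**
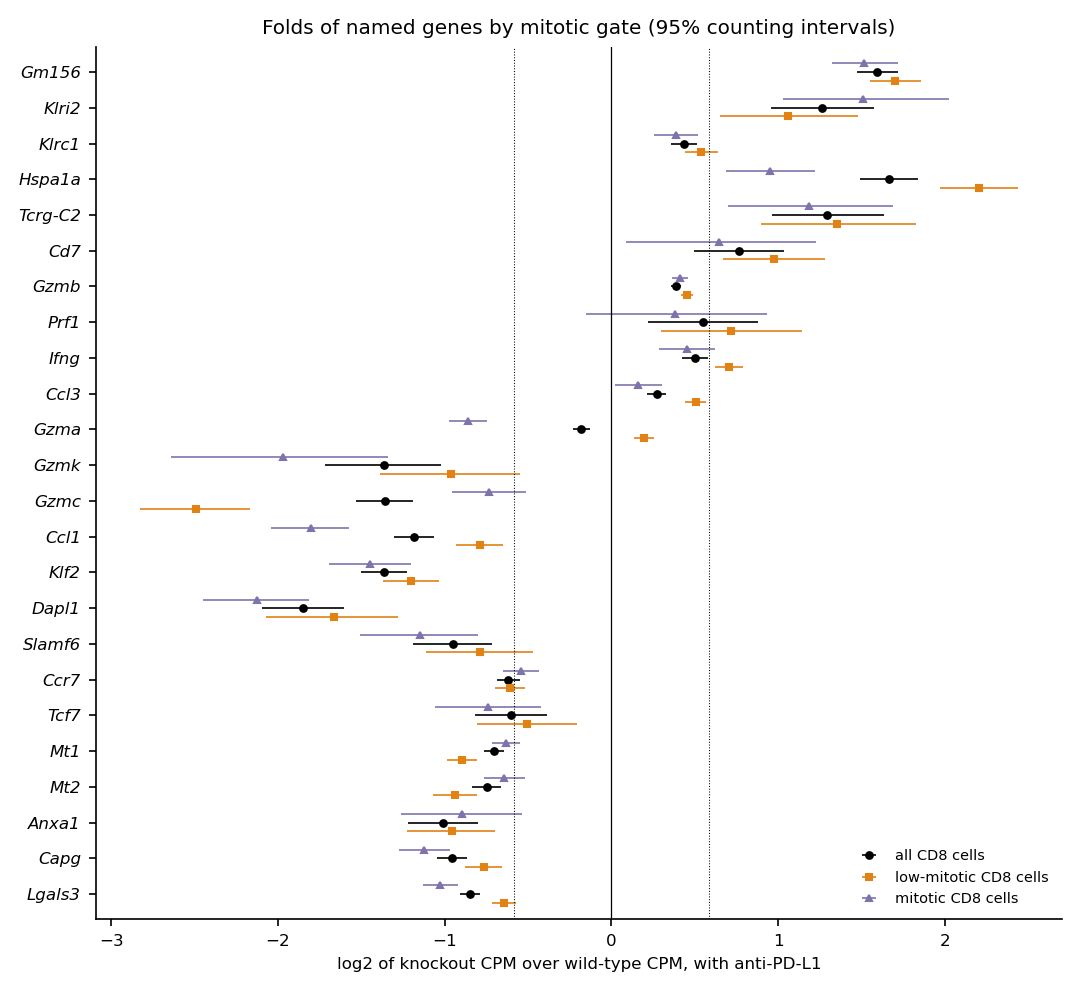
log2 of knockout over wild-type CPM with anti-PD-L1 (x axis) for 24 named genes (y axis), in all, low-mitotic and mitotic CD8 cells, with 95% counting intervals. Dotted lines mark 1.5-fold. Gm156, Klf2 and Dapl1 keep their side in the 3 sets, while Gzma crosses 0 between low-mitotic (0.20) and mitotic cells (-0.86).

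Genes of circulation and memory held 5 of the 73 lower genes. Of 24 in the list 17 were past the floor, with these 5 lower and 0 higher, against 1.60% of all genes called lower. The list's median was -0.30 in all CD8 cells and -0.12 in low-mitotic ones, against 0.09 over all genes. They were Klf2, Dapl1, Slamf6, Ccr7 and Tcf7.

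Klf2, the transcription factor that drives exit from tissue by inducing S1pr1 (chr8:72319062-72321654), was at 189 CPM (wild-type) and 73.4 CPM (knockout), a difference of -1.36 (-1.50 to -1.23). It was held by 23.3% (21.0% to 25.7%) and 12.5% (10.5% to 14.7%) of thinned cells, 32.2% and 22.4% before thinning. The difference was -1.20 in low-mitotic and -1.45 in mitotic cells and ranged from -1.44 to -1.13 over the other ways of processing. Macrophage-like barcodes held Klf2 in 64.0% and 50.8% and there, too, its CPM was lower in knockout (-0.82). In CD8 cells with 0 macrophage and 0 melanoma UMIs the difference was -1.32.

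Dapl1, a gene of naive and memory-like CD8 cells whose product is little studied (chr2:59484653-59505020), was at 79.2 and 22 CPM, a difference of -1.85 (-2.10 to -1.61). It was held by 8.49% (6.99% to 10.2%) of wild-type and 2.00% (1.22% to 3.07%) of knockout cells after thinning and by 0 of 114 and 0 of 132 macrophage-like barcodes. The UMIs came from 166 wild-type and 34 knockout cells. In cells with Xist and no Y-linked UMI the difference was -1.96. Among the 105 thinned wild-type cells with Dapl1, 38.1% (28.8% to 48.1%) also held Tcf7, against 8.75% (7.16% to 10.5%) of those without it. Among the 20 knockout cells with Dapl1 it was 45.0% (23.1% to 68.5%) against 6.92% (5.42% to 8.70%). In both libraries the intervals of cells with and without Dapl1 do not overlap.

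Tcf7, the transcription factor that marks memory-like and progenitor cells, was at 55.8 and 36.8 CPM, a difference of -0.60 (-0.82 to -0.39), and its thinned share was 11.2% (9.53% to 13.1%) and 7.68% (6.11% to 9.51%). It lies at the edge of the mark and stayed past 1.5-fold in 6 of 12 other ways of processing. Slamf6, a surface receptor of the same cells, differed by -0.95 (54.2 and 28.0 CPM) and Ccr7, the receptor for lymph node chemokines, by -0.62 (545 and 355 CPM). Other members were closer to equal. Il7r, the receptor of the survival cytokine IL-7, differed by -0.33, the Tcf7 relative Lef1 by -0.35, Satb1 by 0.06 and Bach2, a repressor of effector genes, by 0.16. The survival gene Bcl2 differed by 0.32.

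Metallothioneins, small cysteine-rich proteins that bind zinc and copper and are induced by metals and glucocorticoids, were lower in the knockout. Mt1 and Mt2 lie side by side on chromosome 8, Mt1 at chr8:94178883-94180327 and Mt2 at chr8:94172618-94173567. Both promoters are shown because the members move together. The windows run from 250 bases before to 50 after the start used in the RefSeq promoter set (GRCm38.p6, plus strand, chr8:94178839-94179138 for Mt1 and chr8:94172368-94172667 for Mt2), which for Mt1 lies downstream of the first base of the gene. Capitals mark matches on both strands to TGCNCNC, a loose pattern that includes the core bound by the zinc-sensing factor MTF1.

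Mt1: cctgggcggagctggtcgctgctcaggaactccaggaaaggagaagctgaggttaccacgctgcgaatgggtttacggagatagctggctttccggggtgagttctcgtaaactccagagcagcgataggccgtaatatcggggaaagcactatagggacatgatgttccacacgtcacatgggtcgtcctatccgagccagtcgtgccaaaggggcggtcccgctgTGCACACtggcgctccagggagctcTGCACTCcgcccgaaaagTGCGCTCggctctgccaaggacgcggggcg
Mt2: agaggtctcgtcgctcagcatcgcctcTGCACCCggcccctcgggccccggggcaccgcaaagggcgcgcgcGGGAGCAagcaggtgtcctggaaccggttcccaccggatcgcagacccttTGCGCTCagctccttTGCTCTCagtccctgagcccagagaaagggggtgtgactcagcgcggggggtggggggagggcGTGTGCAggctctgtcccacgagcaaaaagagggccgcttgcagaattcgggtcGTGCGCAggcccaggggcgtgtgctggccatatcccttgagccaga

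The pattern has 3 matches in the Mt1 window and 6 in that of Mt2, and a match need not be a core that MTF1 binds. It is a short pattern, which 51.0% of 32851 promoter windows hold at least once and 7.10% at least 3 times. Mt1 was at 735 CPM (wild-type) and 450 CPM (knockout), a difference of -0.71 (-0.77 to -0.65), and Mt2 at 350 and 208 CPM, a difference of -0.75 (-0.84 to -0.66). The shares of cells with a UMI were nearly equal for Mt1, 45.2% (42.4% to 48.0%) and 46.1% (43.0% to 49.3%), and for Mt2 28.1% (25.6% to 30.7%) and 24.5% (21.8% to 27.2%). The gap lay in the amount per cell. Holding cells carried a mean of 3.61 Mt1 UMIs in wild-type and 2.10 in knockout after thinning, and 7.44% (6.04% to 9.04%) against 3.19% (2.19% to 4.48%) of cells held 5 or more. For Mt2 the means were 2.87 and 1.64, and 2.99% (2.11% to 4.10%) against 0.499% (0.162% to 1.16%) held 5 or more. This is unlike Gm156, where the share of cells differed more than the mean amount in holding cells.

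Cells with Mt1 held Mt2 in 45.4% (41.3% to 49.7%) of wild-type and 39.4% (34.9% to 44.0%) of knockout cases, against 13.9% (11.4% to 16.7%) and 11.7% (9.08% to 14.7%) of cells without Mt1. The Mt1 difference was -0.90 in low-mitotic and -0.63 in mitotic cells, and -0.87 in cells with 0 macrophage and 0 melanoma UMIs. In macrophage-like barcodes Mt1 was at 1136 and 1037 CPM, while Mt2 was at 113 and 304 CPM, the opposite direction. Of the 8 genes of metallothioneins and zinc handling 3 were past the floor, the third being the zinc importer Slc39a1 at -0.20. Mtf1 itself differed by 0.10, and Mt3, under the floor, was at 17.0 and 15.3 CPM.

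S100, annexin and galectin genes, which encode calcium-binding and membrane-associated proteins of motile and activated cells, had 4 lower members and 0 higher among the 19 of 22 past the floor, where 1.60% and 0.940% of all genes were called. The median was -0.16. Anxa1, an annexin induced by glucocorticoids, was at 69.4 and 34.5 CPM, a difference of -1.01 (-1.22 to -0.80). Capg, an actin filament capping protein, was at 375 and 193 CPM, a difference of -0.96 (-1.05 to -0.87), and was held by 53.1% (50.3% to 55.9%) and 31.7% (28.9% to 34.7%) of thinned cells. Lgals3, the lectin galectin-3, was at 807 and 448 CPM, a difference of -0.85 (-0.91 to -0.79), with thinned shares of 61.4% (58.7% to 64.2%) and 47.8% (44.7% to 50.9%). The large scaffold gene Ahnak differed by -0.68. Macrophages express these genes strongly, with Lgals3 at 4649 and 4839 CPM in macrophage-like barcodes, which were not lower in knockout. Without CD8 cells that held any macrophage or melanoma UMI of the gates the differences were -0.81 for Anxa1, -0.85 for Capg and -0.79 for Lgals3. Lgals1, which encodes galectin-1, differed by 0.02.

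**Figure D3:**
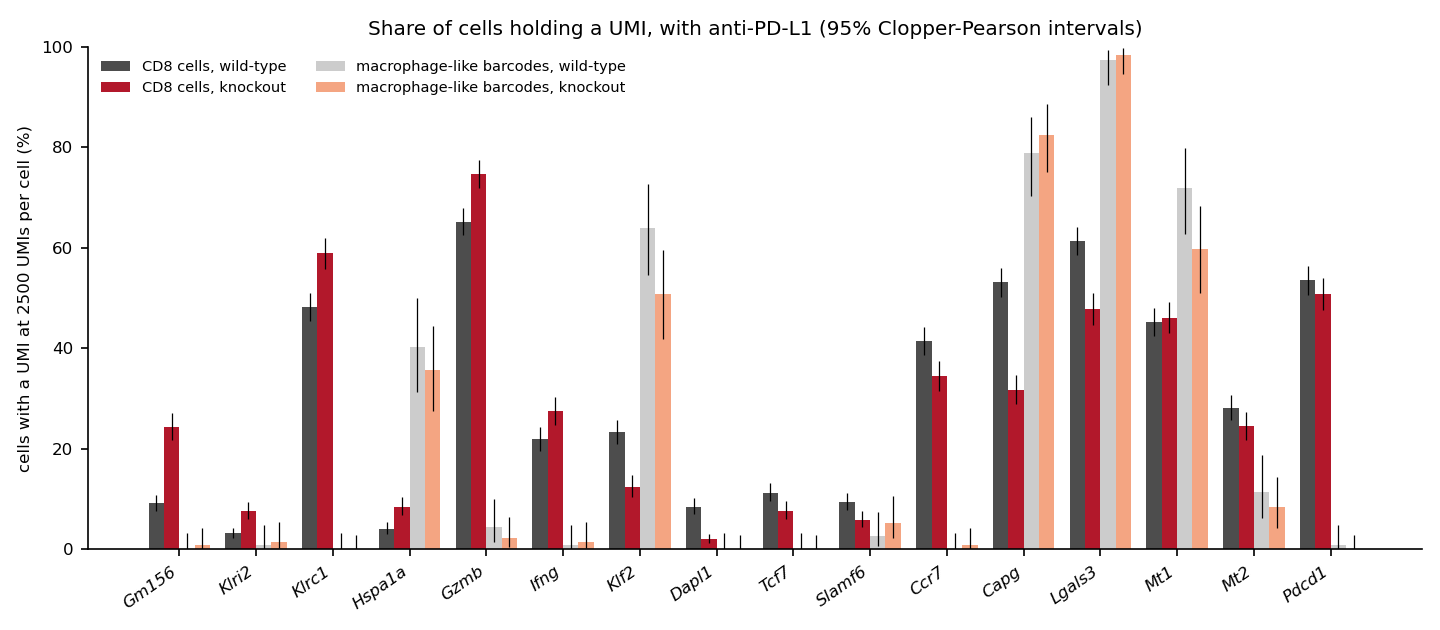
Percent of cells with at least 1 UMI of each gene after thinning to 2500 UMIs (bars from 0), in CD8 cells and macrophage-like barcodes of both libraries with anti-PD-L1, with 95% Clopper-Pearson intervals. Gm156 is held by 9.13% of wild-type and 24.4% of knockout CD8 cells, Dapl1 by 8.49% and 2.00%, and Mt1 by 45.2% and 46.1%.

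Surface genes of position in tissue showed small differences. Of 20 chemokine receptors and integrins 15 were past the floor and only the oxysterol receptor Gpr183 was called. It was lower, at 28.0 and 12.5 CPM, a difference of -1.16 (1.60% of all genes were called lower). The tissue-homing receptors Cxcr6 and Ccr2 differed by -0.04 and 0.20. Of 12 tetraspanins 8 were past the floor, with a median of -0.22, and Tspan32 alone was lower at -0.76 (1.60% of all genes were).

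Inhibitory receptors were close to equal. Of 19 members of the exhaustion list 10 were past the floor, none was called (0 higher, 0 lower, against 2.53% of all genes called in either direction), and the median was -0.10. Pdcd1, the PD-1 gene, had 397 and 360 CPM, a difference of -0.14, and was held by 53.5% (50.7% to 56.3%) and 50.8% (47.7% to 53.9%) of thinned cells. Lag3 differed by 0.05, Ctla4 by 0.18, Cd160 by 0.02 and Havcr2, which encodes TIM-3, by 0.10. Tox, the transcription factor of exhausted cells, was at 47.8 and 36.0 CPM, a difference of -0.41, with thinned shares of 9.78% (8.18% to 11.6%) and 8.68% (7.01% to 10.6%) whose intervals overlap. Of 17 effector transcription factors 11 were past the floor and none was called (2.53% of all genes were). Batf, an AP-1 factor of effector cells, had a difference of 0.46 and Tbx21, which encodes T-bet, 0.10.

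Of 27 genes of T cell receptor signalling 24 were past the floor in all CD8 cells, with 1 higher and 3 lower (0.940% and 1.60% of all genes) and a median of -0.05. The higher one was Tnip3, an inhibitor of NF-kB signalling, at 0.65. The lower ones were the surface protein Cd83 at -1.17 and the MAP kinase regulators Dusp10 and Spry2 at -0.64 and -0.67. The costimulatory receptor Tnfrsf9 was at 590 and 733 CPM, a difference of 0.31. Of 28 immediate early and heat shock genes 25 were past the floor, and Hspa1a alone was called (0.940% of all genes were called higher). In low-mitotic cells the mRNA decay factor Zfp36 was also higher, at 0.70, while Fosb and Atf3 were lower, at -0.59 and -0.84. Atf3 differed by -0.56 in low-mitotic cells with Xist and no Y-linked UMI, under the 1.5-fold mark.

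Tet2 counts say little about the knockout, because the deleted part is not stated and reads come from the 3′ end. Tet2 was at 15.6 and 17.8 CPM, a difference of 0.19 (-0.17 to 0.54). Tet3, the other TET enzyme detected at a similar level, differed by -0.01. The maintenance methyltransferase Dnmt1 differed by 0.37.

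The share of cells on each side of the mitotic gate is set by the 6 genes of the rule and is given as a description. Low-mitotic cells made up 74.6% (72.1% to 76.9%) of wild-type and 65.9% (62.9% to 68.8%) of knockout CD8 cells. The gate is a UMI count and knockout cells were deeper, and after thinning every cell to 2500 UMIs the shares were 86.4% (84.4% to 88.3%) and 82.4% (79.9% to 84.7%). Genes of proliferation outside the gate were measured apart from it. Of 31 S phase genes 28 were past the floor in all CD8 cells and all 28 were above 0, with a median of 0.35, though none reached 1.5-fold. Of 34 G2/M genes 27 were past the floor and all 27 were above 0, with a median of 0.32. The median of all genes was 0.09. Macrophage-like barcodes also had a G2/M median of 0.32, over 10 genes past the floor, 8 of these above 0. The part of a shift common to both cell types was not tested. The mitotic kinases Aurka and Plk1, cyclin B (Ccnb1) and the kinetochore motor Cenpe were called higher, at 0.75, 0.73, 0.74 and 0.69. These were 4 of the 27, where 0.940% of all genes were called higher.

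The S phase difference held on the low-mitotic side of the gate. There 27 S phase genes were past the floor and all 27 were above 0, with a median of 0.35 beside 0.09 for all genes. The replication helicase subunits Mcm4 and Mcm5 were called higher (1.64% of all genes were), at 34.7 and 54.0 CPM (0.64) and at 62.2 and 93.9 CPM (0.59). Macrophage-like barcodes had a median of 0.22 over 15 S phase genes. Mcm5 stayed past 1.5-fold in 7 of 14 other ways of processing and Mcm4 in 9. Within mitotic cells the lists were nearer to equal, with medians of 0.10 for S phase and 0.03 for G2/M. No member was called there (2.92% of all genes were). Mthfd1, a folate enzyme that feeds purine and thymidylate synthesis, was at 16.1 and 33.8 CPM in low-mitotic cells, a difference of 1.07 (0.66 to 1.49).

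Of 22 glycolysis and hypoxia genes 19 were past the floor in all CD8 cells and 18 of these were above 0. None was called higher (0.940% of all genes were), and the median was 0.25 beside 0.09 for all genes. In low-mitotic cells the glycolytic kinase Pgk1 was higher, at 14.7 and 26.5 CPM (0.85). Gapdh was at 1201 and 1588 CPM (0.40), Eno1 differed by 0.52, and Ldha, which makes lactate, was at 1641 and 2098 CPM (0.35). The exception was Ddit4, a stress-induced inhibitor of mTOR signalling, at 186 and 119 CPM, a difference of -0.64. Macrophage-like barcodes had a median of 0.33 for the same list, and the part of a shift common to both cell types was not tested. In all CD8 cells oxidative phosphorylation genes had a median of 0.09, that of all genes. Proteasome genes had a median of 0.18 and MHC class I presentation genes -0.13. No member of these lists was called (2.53% of all genes were). In low-mitotic cells Cycs, which encodes cytochrome c, was higher at 0.62.

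Interferon response genes were close to equal in CD8 cells. Of 35, 22 were past the floor, with 0 higher and 1 lower (0.940% and 1.60% of all genes) and a median of -0.02. The lower one was Ifitm1, an antiviral membrane protein, at 274 and 171 CPM (-0.67). Its difference was -0.38 in CD8 cells with 0 macrophage and 0 melanoma UMIs, and it stayed past 1.5-fold in 8 of 12 other ways of processing. In macrophage-like barcodes of the same libraries the median of the 31 members past the floor was 0.48, beside 0.08 for all genes there. The ribosomal protein genes Rps29, Rps28 and Rpl38 were lower, at -0.83, -0.60 and -0.61, while 80 such genes had a median of -0.04.

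**Figure D4:**
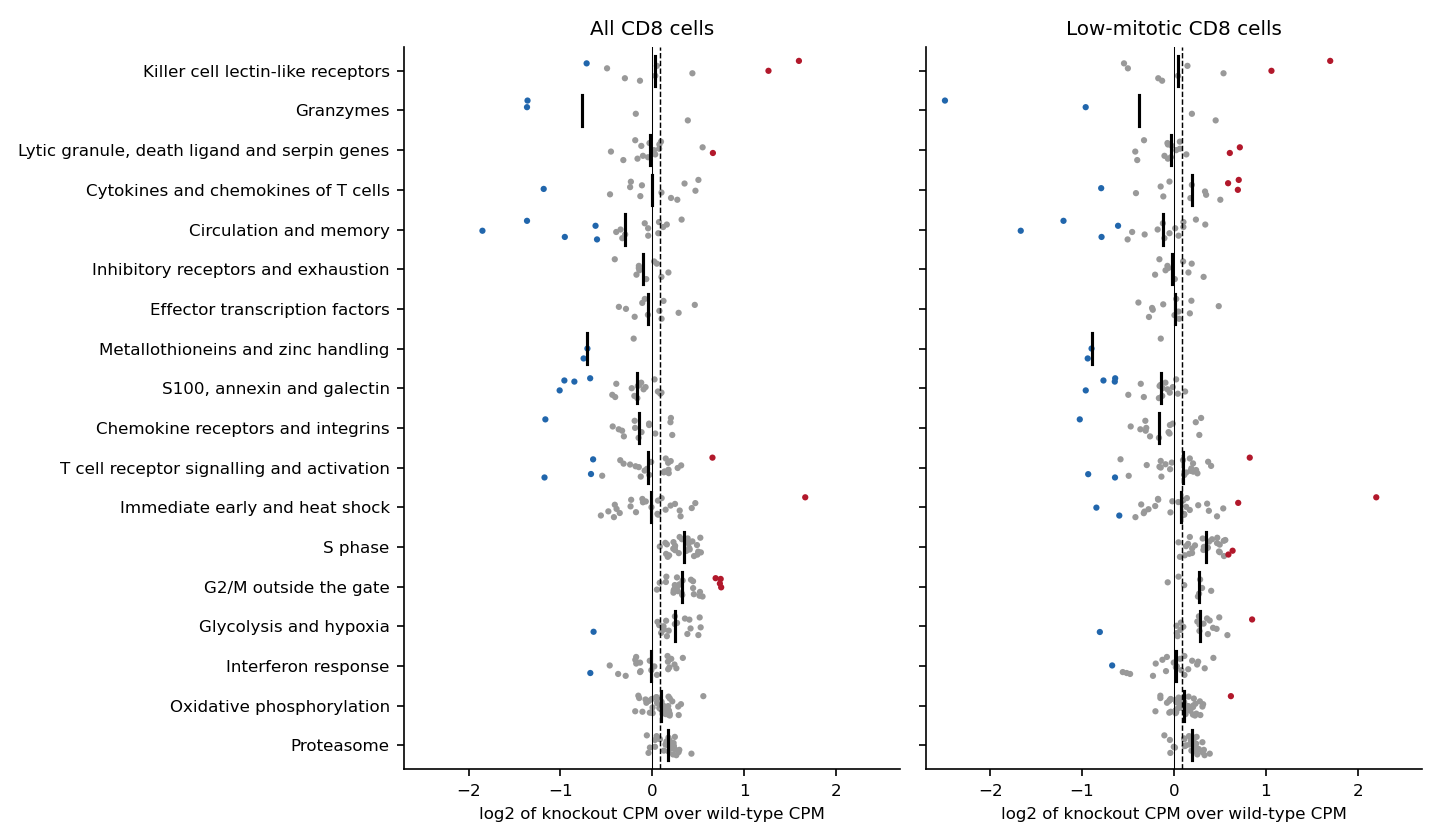
log2 of knockout over wild-type CPM (x axis) for the members past the floor of 18 gene lists (y axis), in all CD8 cells (left) and low-mitotic CD8 cells (right). Red and blue points are called higher and lower, grey points are within 1.5-fold, black bars are list medians and the dashed line is the median of all genes (0.09). S phase members lie to the right of 0, and the member furthest to the left is Dapl1 (-1.85) in all CD8 cells and Gzmc (-2.49) in low-mitotic ones.

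Some of the widest differences rest on few cells or concern genes known from other cell types. Ccl2, a chemokine of macrophages, was at 9.95 and 71.5 CPM, but its UMIs came from 4 and 7 cells, and a single knockout cell held 566 of them. The direction reversed in the other listing of the barcodes, to -3.51. Hbb-bt, a globin chain, was at 94.6 and 8.38 CPM in 30 and 11 cells. Cd74, of MHC class II antigen presentation, was at 65.5 and 19.0 CPM (-1.79), or -0.63 without the top cell of each library. Fcer1g, a signalling adaptor of macrophages and NK cells, was at 89.4 and 26.8 CPM (-1.74) from 167 and 92 cells. Its difference was -1.59 without cells that held a macrophage or melanoma UMI of the gates, and 0.22 in macrophage-like barcodes. Like Fcer1g, Rgs10 and Tnfsf8 were lower with a broad base of cells. Rgs10, a regulator of G protein signalling, was at 130 and 54.8 CPM from 533 and 301 cells (-1.24). Tnfsf8, the CD30 ligand, was at 30.3 and 12.4 CPM from 156 and 72 cells (-1.29). Higher calls of gene models and copies, such as Gm10036 (2.07) and Tpm3-rs7 (2.86), can be split between near-identical copies and are uncertain.

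The same ratio could be taken without anti-PD-L1, in 2616 CD8 cells of the untreated libraries, which share no library with those above. There 309 of 4597 genes were higher (6.72%) and 355 lower (7.72%), 14.4% in all. In low-mitotic cells 379 of 4534 were higher (8.36%) and 489 lower (10.8%), 19.1% in all. Of the 43 genes higher with anti-PD-L1, 4 were higher untreated, 9 were lower and 30 were not called. Of the 73 lower ones 14 were lower, 13 higher and 46 not called. The values are set side by side, and whether the treatments differ was not tested.

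Several genes stood on the same side in both comparisons. Gm156 differed by 1.60 with anti-PD-L1 and 1.54 without, Klri2 by 1.26 and 1.86, Cd7 by 0.76 and 2.09, Dapl1 by -1.85 and -2.00, Mt1 by -0.71 and -0.77, Mt2 by -0.75 and -0.98, and Capg by -0.96 and -0.81. Gzmc was lower in both, by -1.36 and -3.95.

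Other genes stood on opposite sides. Klf2 differed by -1.36 with anti-PD-L1 and 0.78 without, Ccr7 by -0.62 and 1.01, Lgals3 by -0.85 and 0.80, Anxa1 by -1.01 and 1.07, and Ifitm1 by -0.67 and 2.62. Hspa1a differed by 1.66 and -0.89, Plk1 by 0.73 and -1.39, and Prf1 by 0.55 and -0.95. Gzma was nearly equal with anti-PD-L1 (-0.18) and far apart without it, at 31.9 and 354 CPM, a difference of 3.47 (3.24 to 3.72). Low-mitotic cells made up 46.4% of wild-type and 58.5% of knockout CD8 cells without treatment, the reverse of the order with it.

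**Figure D5:**
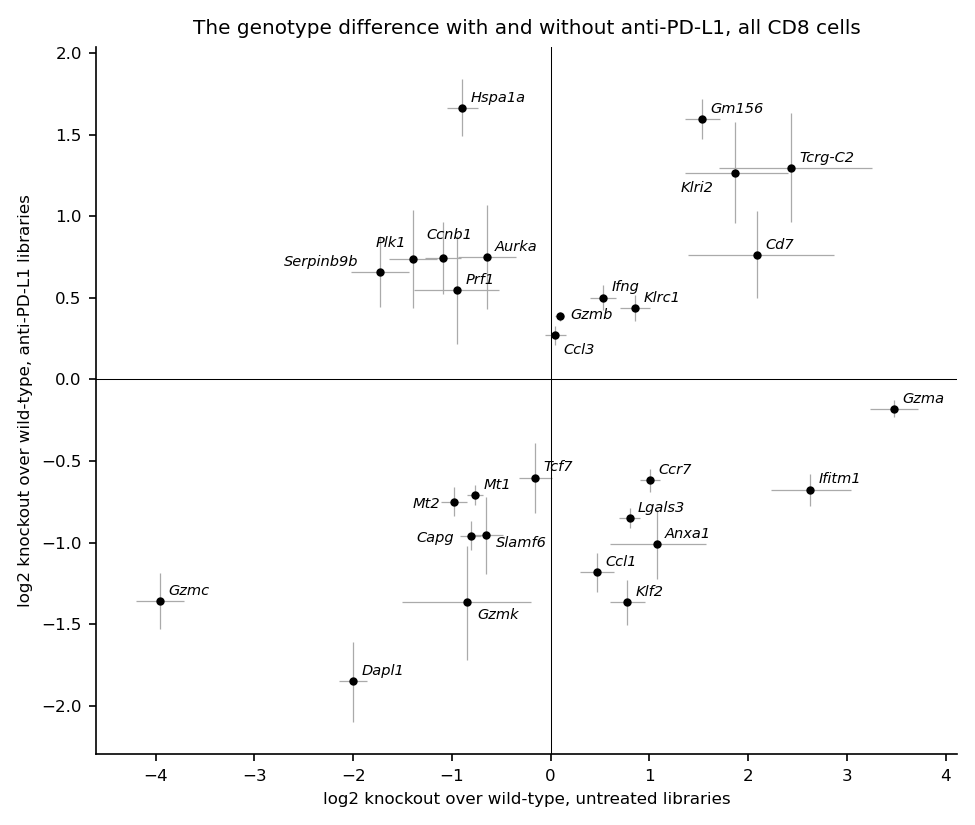
log2 of knockout over wild-type CPM in all CD8 cells, in the untreated libraries (x axis) against the anti-PD-L1 libraries (y axis), for 29 named genes with 95% counting intervals. Gm156 (1.54, 1.60) and Dapl1 (-2.00, -1.85) lie in quadrants of equal sign, while Klf2 (0.78, -1.36) and Hspa1a (-0.89, 1.66) lie in quadrants of opposite sign.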

How the data were processed

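The deposited tables hold raw UMI counts per barcode and gene, 1 table for each single-cell library, made by the authors. The labels name mouse CD8 T cells from tumours on the 10x Chromium platform, and the submitters' processing notes list bedtools, Bowtie2, DESeq2, Genrich 0.5, HISAT2, HTSeq and Trim Galore 0.5.0 with the build mm10, giving none a role. How UMIs were counted and cells called, and on which annotation, is not given in the sources used here. The 8 RNA and 8 ATAC samples of the series were not analysed here.

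Each table lists most barcodes in a second listing with other counts, marked by a barcode with 2 hyphens, which was used. The sources do not say which listing the authors analysed. Names ending in a hyphen and a digit from 1 to 4 were dropped as duplicates, at most 0.00281% of UMIs, which left 27916 genes, of which 24096 matched RefSeq (GRCm38.p6). All 680 genes that could be named had a RefSeq entry. The listing held 1680 barcodes in wild-type and 1346 in knockout with anti-PD-L1. Under 500 genes were 49 and 57 and over 10% mitochondrial were 41 and 36, leaving 1603 and 1277. Doublets were not called, and an alternative drops the 5% of cells with most UMIs. The 2 libraries shared 1 CD8 barcode.

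UMIs were summed over cells and divided by their total (python 3.11.15, numpy 2.4.6, scipy 1.17.1, pandas 2.3.3, matplotlib 3.10.9). Intervals are exact conditional binomial for ratios and Clopper-Pearson for shares. For folds, 0 UMIs were taken as 3. For shares, cells were thinned to 2500 UMIs, which left out 60 wild-type and 15 knockout cells. Macrophage-like barcodes (122 and 133) had at least 5 macrophage UMIs and none of the CD3 and CD8 genes. TMM factors came from edgeR 4.0.16 (R 4.3.3) as an alternative scale. Named genes were the 12 highest and 12 lowest calls in each cell set, Tet2 and members of the gene lists. The members, lists and rules were chosen with earlier results of these data known. The calculation was tested on simulated data. There are no replicates, so precision is that of counting alone.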

Additional observations from a re-analysis of the deposited data

Results flagged for a closer look

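These genes were called in opposite directions in the anti-PD-L1 and the untreated comparison. Each value is the log2 difference of knockout over wild-type with anti-PD-L1 minus that without it, from 1 library in each of 4 groups, and whether the difference is real was not tested.

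In all CD8 cells 9 genes were called higher with anti-PD-L1 and lower without it, and those that the naming rule covers were Hspa1a, a chaperone (2.56), Serpinb9b, a protease inhibitor (2.38), the mitotic genes Plk1 (2.13), Ccnb1 (1.83) and Aurka (1.39), and the folate enzyme Mthfd1 (1.45). Another 13 were called lower with it and higher without it. Those that the rule covers were the antiviral gene Ifitm1 (-3.30), the tissue exit factor Klf2 (-2.14), the lectin Lgals3 (-1.65) and the lymph node homing receptor Ccr7 (-1.62). They also included the red cell genes Hbb-bt (-5.65), Hbb-bs (-2.85), Hba-a1 (-2.71) and Hba-a2 (-2.71). The last pair encodes the same protein, and reads can be split between them.

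In low-mitotic CD8 cells, of the covered genes not named above, the replication helicase subunits Mcm4 (1.38) and Mcm5 (1.31) were higher with anti-PD-L1 and lower without it. The reverse held for Anxa1 (-2.23), the chemokine Ccl1 (-1.78), the interferon-induced chaperone Rtp4 (-1.48) and the class II gene H2-Aa (-3.43). H2-Aa rests on few cells, and its difference with anti-PD-L1 was 0.11 without the top cell of each library.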

How the results depend on the processing

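Results were recomputed with 1 choice changed at a time. For single genes this was scored for named genes only. Of 111 such results past 1.5-fold, 66 stayed past it on the same side in every setting run, and 7 reversed in at least 1. Gm156, Klf2, Dapl1, Mt1 and Mt2 were among the 66 in both cell sets. The named genes include the highest and lowest calls of each cell set. The share of 66 in 111 therefore does not describe all calls, which were 116 in all CD8 cells and 150 in low-mitotic ones. No paired analysis was possible because each single-cell group is 1 library. For the same reason no replicate could be left out.

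The number of called genes in all CD8 cells was 42 with a floor of 50 CPM (8 higher, 34 lower) and 418 with a floor of 5 CPM (227 and 191). Genes higher there were 22 with TMM factors, 27 with median-of-ratios factors, 90 after thinning and 74 in cells with no UMI of red cell, B cell, CD4 or class II genes, a setting chosen after seeing the data. In low-mitotic cells the count was 54 with the 50 CPM floor (20 and 34), 629 with the 5 CPM floor (373 and 256), 261 after thinning (155 higher) and 241 in cells with 0 mitotic UMIs (157 higher). Genes higher there were 42 with TMM factors (117 lower), 43 with median-of-ratios factors and 45 with the mitotic gate on thinned counts. Fewer or more genes are tested under another floor, and the cause of the other shifts was not tested.

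The low-mitotic share in wild-type and knockout was 77.9% and 69.3% without the 5% of cells with most UMIs, 57.5% and 44.8% for 0 mitotic UMIs, and 86.4% and 82.4% on thinned counts. In knockout it was 69.9% in cells with 0 macrophage and melanoma UMIs, and in wild-type 78.1% in cells with no UMI of the other cell types above.

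Reversals were seen for Ccl2, class II genes and Cd74, alpha globins and the granzyme list. Ccl2 became -3.51 in the other listing, -3.73 with at least 3 CD8 UMIs and without the 5% deepest cells, and -3.88 without UMIs of other cell types. H2-Ab1 in all CD8 cells became 0.32 without the top cell, 0.45 with 0 macrophage and melanoma UMIs, 0.37 without the deepest cells, 0.32 in cells with Xist and no Y-linked UMI, and 0.75 without UMIs of other cell types. In low-mitotic cells, in that order, it became 0.45, 0.56, 0.47, 0.58 and 0.80, and 0.39 with 0 mitotic UMIs. H2-Aa there became 0.11, 0.19, 0.28 and 0.38 in the first 4 of these and 0.41 with 0 mitotic UMIs, where Cd74 became 0.32. With each cell weighted equally Hba-a1 became 0.032 and Hba-a2 0.020. The granzyme median in low-mitotic cells became 0.20 with the 50 CPM floor, where fewer members count. Genes below about 20 CPM in a library rest on few UMIs, and depth there limits what can be seen.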

Other observations

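Ribosome biogenesis genes lay higher in the knockout in low-mitotic cells. A list of 69 nucleolar and ribosome assembly factors was written after values had been seen, so its numbers are a description only. In low-mitotic cells 57 were past the floor, 54 of these were above 0, 10 were called higher and 0 lower (1.64% and 1.69% of all genes), and the median was 0.30 beside 0.09 for all genes. In all CD8 cells 56 were past the floor, 0 were called in either direction (2.53% of all genes were) and the median was 0.25. Nop2, a ribosomal RNA methyltransferase, was at 16.5 and 26.5 CPM (0.68), Pes1, a large subunit assembly factor, at 34.9 and 53.5 (0.62), and Nop16, another nucleolar protein, at 36.5 and 58.6 (0.68). The abundant nucleolar genes Ncl and Npm1 differed by 0.34 and 0.21. In the untreated low-mitotic comparison the same list had a median of -0.19, with 12 of 60 above 0.

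A second list written in the same way held 21 genes of folate, serine and purine synthesis. In low-mitotic cells with anti-PD-L1 17 were past the floor, all 17 were above 0, 4 were called higher (1.64% of all genes) and the median was 0.34. In all CD8 cells 17 were past the floor, 2 were called higher (0.940% of all genes) and the median was 0.42. The 4 in low-mitotic cells were Mthfd1 (1.07), the folate carrier Slc19a1 (0.79), the first enzyme of purine synthesis Ppat (0.77) and the mitochondrial serine enzyme Shmt2 (0.67). Without anti-PD-L1 7 of 17 were called lower in low-mitotic cells (10.8% of all genes) and the median was -0.52.

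A few lower genes outside the lists were picked after their values were seen and stand for no group. Tsc22d3, a glucocorticoid-induced regulator also called GILZ, was at 223 and 113 CPM (-0.98) from 828 and 517 cells. Pdcd4, an inhibitor of translation, was at 96.9 and 52.6 CPM (-0.88) from 517 and 282 cells, and Txnip, which limits glucose uptake, at 58.7 and 34.2 CPM (-0.78). In low-mitotic cells Tsc22d3 differed by -0.85, Pdcd4 by -1.09 and Txnip by -0.67. In all CD8 cells of the untreated libraries they differed by 1.51, 0.58 and 0.24.

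Below the floor and so outside the counts, Cd40lg, the ligand of CD40, had UMIs in 37 wild-type and 4 knockout CD8 cells (5.28 and 0.625 CPM). It belongs to a list of 5 CD4 and regulatory T cell markers. That list as a whole summed to nearly the same level, 16.0 CPM in wild-type and 16.3 CPM in knockout. Gzmf, a granzyme of the Gzmc cluster, was at 33.0 and 6.75 CPM from 48 and 19 cells.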
